A study of Mus musculus with 16 samples.

Results

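The genes described here are 40 genes of the cell division cycle: 17 that act in or just before S phase, when DNA is copied, and 23 that act in the run-up to mitosis and during it. They were picked by gene symbol from the 39179 rows of a raw count table of mouse splenic B cell libraries. Each of the 40 symbols matched a row, and all 40 genes passed the filter on low counts that left 15021 genes for testing. The S phase members are Rrm1, Rrm2, Tyms, Tk1, Pcna, Mcm2, Mcm3, Mcm4, Mcm5, Mcm6, Mcm7, Cdc6, Cdc45, Cdt1, E2f1, Ccne1 and Ccne2. The mitosis members are Mki67, Top2a, Cdk1, Ccna2, Ccnb1, Ccnb2, Ube2c, Birc5, Aurka, Aurkb, Plk1, Bub1, Bub1b, Cdc20, Cenpa, Cenpe, Cenpf, Kif11, Kif20a, Tpx2, Foxm1, Nusap1 and Prc1.

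A resting cell that enters the cycle first licenses its replication origins: Cdc6 and Cdt1 load the helicase made of the Mcm2 to Mcm7 proteins, Cdc45 later helps to switch that helicase on, and Pcna is the sliding clamp of the DNA polymerases. Cyclin E, encoded by Ccne1 and Ccne2, drives entry into S phase, and E2f1 is a transcription factor that activates many genes of this step. Cyclin A and the B cyclins then bind Cdk1 and carry the cell into mitosis, where motor proteins build the spindle, checkpoint kinases such as Bub1 watch the attachment of chromosomes, and the anaphase-promoting complex with Cdc20 and Ube2c ends it. Most splenic B cells of an unimmunised mouse are resting; dividing cells in spleen include B cells in germinal centres, newly made plasma cells and, in mice, precursors of red cells and of other blood cells.

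The study asked how diet bears on the transcriptome of splenic B cells of NOD.LT mice, of the NOD background that develops autoimmune diabetes. Poly(A) RNA of B cells obtained by negative magnetic selection was sequenced from mice aged 15 weeks. The mice had free access to 1 of 4 diets over their last 5 weeks: HAMSA, HAMSB, HAMS or the diet labelled NP, whose libraries carry the source name GD and which the feeding protocol appears to list under another name. In published use HAMS is high-amylose maize starch, and HAMSA and HAMSB are its acetylated and butyrylated forms. Each diet has 4 libraries, although the design text also speaks of triplicates. The labels give a number to each library but not the animal or pool behind it, so p-values here measure only the spread between these libraries, which may be technical.

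Total counts ran from 15053965 to 46206200 a library. The HAMSA libraries were the shallowest, at 15053965 to 30723337 counts, and no library of another diet had fewer than 31707731. All 9 B cell markers were measured, and their summed level lay between 12790 and 16660 CPM in the 16 libraries (counts scaled to library size, with factors from the trimmed mean of M values, TMM). Markers of other cells were present too and differed by library: the 19 erythroid markers summed to 62.4 CPM in HAMSB 6 and to 6694 CPM in HAMSA 2. The lowest count behind any member's value was 25, for Ccne2. In RNA from a mixed preparation, fewer cells of a type and less RNA per cell cannot be told apart.

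The S phase members were present at higher levels than the mitosis members. Per kilobase of merged exons, the S phase members had a median level of 7.64 CPM per kb over the 16 libraries, and the mitosis members a median of 2.59 CPM per kb. Cdt1 had the highest level of the 40 genes, at 28.5 CPM per kb, followed by Mcm3 at 24.5, Mcm4 at 23.04, Pcna at 19.9 and Mcm5 at 19.8 CPM per kb. The highest mitosis members were Cdc20, at 7.42 CPM per kb, and Cenpa, which encodes the histone variant of centromeres, at 7.01 CPM per kb. Mki67, the gene of the proliferation antigen Ki-67, had 6.70 CPM per kb. The lowest levels were those of Cenpf, a kinetochore protein gene, at 0.431 CPM per kb, and Ccne2, at 0.690 CPM per kb.

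The mitosis members also varied more between libraries than the S phase members did. The highest library exceeded the lowest by a median of 5.24-fold over the mitosis members and by a median of 2.15-fold over the S phase members. Among the S phase genes those of the helicase, the clamp and Cdt1 were among the steadiest, as was Rrm1, the gene of the large subunit of ribonucleotide reductase: Mcm4 spanned 1.34-fold, Pcna 1.65-fold, Mcm3 1.81-fold, Rrm1 1.85-fold and Cdt1 2.03-fold. Cdc6 spanned 7.79-fold, Rrm2, which encodes the small subunit of ribonucleotide reductase, 7.004-fold, Ccne2 6.62-fold, Tyms, the gene of thymidylate synthase, 6.41-fold, and Ccne1 5.29-fold. Among the mitosis genes Ube2c spanned 16.4-fold, Cdk1 11.48-fold, Birc5, the gene of survivin, 11.4-fold and Ccna2 10.04-fold. Foxm1, which encodes a transcription factor of mitotic genes, spanned 1.72-fold and Cenpa 1.90-fold, while every other mitosis member spanned at least 3.02-fold.

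RefSeq promoter sequences on GRCm38.p6 were at hand for 33 of the 40 members, 15 of S phase and 18 of mitosis. Each window ran from 250 bases before to 50 bases after the start used by that source. The windows of Cdc6, E2f1 and Mcm7 lay wholly inside these genes as annotated in GENCODE M21, past the gene start given there. All windows were searched on both strands for 3 kinds of letters: E2F sites, the cell cycle homology region (CHR) and the CCAAT box. As E2F sites were taken the form TTCCCGC, the form spelled TTGGCGC, the form spelled TTCGCGC and the form spelled TTGCCGC. As CHR the form TTTGAA and the form spelled TTCGAA were taken. Where a gene had more than 1 window, the one with the lowest coordinate was counted, for the members and for all 27025 genes in the reference table alike. The E2F letters occurred in 53.3% of the S phase promoters, 16.7% of the mitosis promoters and 9.7% of the promoters of all genes. The CHR letters occurred in 77.8% of the mitosis promoters, 13.3% of the S phase promoters and 19.4% of those of all genes. CCAAT occurred in 88.9% of the mitosis promoters, 60.0% of the S phase promoters and 37.8% of those of all genes. CHR and CCAAT occurred together in 14 of the 18 mitosis promoters, 2 of the 15 S phase promoters (Cdc45 and Mcm2) and 7.57% of those of all genes. The other of the 2 windows of Mcm7, which was not counted, held 1 CHR match and 3 CCAAT matches. These are matches of letters and are not evidence of binding.

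The promoters of 5 members are shown because the results below turn on these genes: Cdt1 and Tk1 passed a test between diets, Cdc6 and Ube2c had the widest range between libraries in the S phase and mitosis groups, and Cenpa varied less than nearly all other mitosis genes. Capitals mark the E2F letters in Cdt1 and Cdc6 and the CHR and CCAAT letters in Ube2c and Cenpa, on either strand; each sequence is written along the strand of its gene. In Ube2c a pair of overlapping CCAAT matches on opposite strands reads as one run of capitals. The Cdt1 window is chr8:122567765-122568064 on the plus strand, the Cdc6 window chr11:98907901-98908200 on the plus strand, the Tk1 window chr11:117825965-117826264 on the minus strand, the Ube2c window chr2:164769679-164769978 on the plus strand and the Cenpa window chr5:30666636-30666935 on the plus strand.
Cdt1: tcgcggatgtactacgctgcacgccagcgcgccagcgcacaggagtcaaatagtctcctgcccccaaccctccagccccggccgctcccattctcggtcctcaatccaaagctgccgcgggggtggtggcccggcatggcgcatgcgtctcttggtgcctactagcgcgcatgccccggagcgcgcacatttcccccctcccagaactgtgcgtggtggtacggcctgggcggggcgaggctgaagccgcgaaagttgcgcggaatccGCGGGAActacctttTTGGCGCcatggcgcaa
Cdc6: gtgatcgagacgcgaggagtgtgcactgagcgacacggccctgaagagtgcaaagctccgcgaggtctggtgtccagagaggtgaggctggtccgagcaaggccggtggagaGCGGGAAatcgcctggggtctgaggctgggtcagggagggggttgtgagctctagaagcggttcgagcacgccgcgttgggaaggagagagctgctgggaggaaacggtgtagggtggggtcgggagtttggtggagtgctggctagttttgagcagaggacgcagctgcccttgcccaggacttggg
Tk1: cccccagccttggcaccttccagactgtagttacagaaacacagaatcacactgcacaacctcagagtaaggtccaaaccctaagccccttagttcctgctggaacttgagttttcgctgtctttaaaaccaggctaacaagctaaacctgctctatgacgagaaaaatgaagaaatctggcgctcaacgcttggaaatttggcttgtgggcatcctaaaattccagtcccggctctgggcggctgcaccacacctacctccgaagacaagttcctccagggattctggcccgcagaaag
Ube2c: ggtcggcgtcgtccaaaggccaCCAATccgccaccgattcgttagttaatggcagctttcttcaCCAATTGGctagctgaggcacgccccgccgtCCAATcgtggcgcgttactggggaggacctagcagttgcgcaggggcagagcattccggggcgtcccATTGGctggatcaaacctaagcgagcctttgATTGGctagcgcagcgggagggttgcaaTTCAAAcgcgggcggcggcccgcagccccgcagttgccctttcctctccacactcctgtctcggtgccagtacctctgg
Cenpa: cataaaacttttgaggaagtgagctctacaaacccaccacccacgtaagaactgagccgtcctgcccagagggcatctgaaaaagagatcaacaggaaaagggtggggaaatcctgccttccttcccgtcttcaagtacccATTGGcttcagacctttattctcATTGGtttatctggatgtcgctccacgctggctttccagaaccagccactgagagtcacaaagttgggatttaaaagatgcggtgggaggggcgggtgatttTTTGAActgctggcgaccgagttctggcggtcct
The Cdt1 window held 2 matches to the E2F letters, and the Cdc6 window held 1. Ube2c held 1 CHR match and 6 CCAAT matches, and Cenpa held 1 CHR match and 2 CCAAT matches. The Tk1 window held none of the letters searched.

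The summed level of the mitosis members differed widely between libraries of the same diet, above all in HAMSA and HAMSB. It was 401, 780, 351 and 306 CPM in HAMSA libraries 1, 2, 3 and 6, 391, 559, 198 and 236 CPM in HAMSB libraries 1, 2, 5 and 6, 344, 269, 264 and 190 CPM in HAMS libraries 1, 4, 5 and 6, and 264, 332, 227 and 220 CPM in NP libraries 1, 3, 4 and 5. HAMSA 2 and HAMSB 2 were the highest, HAMS 6 and HAMSB 5 the lowest, and the ranges of the 4 diets overlapped. The sum of the S phase members was 861, 1140, 902 and 767 CPM in the HAMSA libraries, 867, 949, 655 and 708 CPM in the HAMSB libraries, 816, 849, 688 and 704 CPM in the HAMS libraries, and 672, 724, 675 and 711 CPM in the NP libraries, in the same order of libraries. All 4 HAMSA libraries stood above all 4 NP libraries in that sum, while HAMSA overlapped with HAMSB and with HAMS.

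The mitosis sum averaged 459 ± 217 CPM in HAMSA, 346 ± 165 CPM in HAMSB, 267 ± 62.9 CPM in HAMS and 261 ± 51.2 CPM in NP (SD, n = 4 each). The S phase sum averaged 918 ± 159 CPM in HAMSA, 795 ± 136 CPM in HAMSB, 764 ± 80.2 CPM in HAMS and 696 ± 26.2 CPM in NP (SD, n = 4 each). The ratio of the S phase sum to the mitosis sum averaged 2.17 ± 0.509 in HAMSA, 2.56 ± 0.735 in HAMSB, 2.96 ± 0.595 in HAMS and 2.74 ± 0.465 in NP. It was lowest in HAMSA 2, at 1.46, and highest in HAMS 6, at 3.71, the libraries with the highest and the lowest mitosis sum, which is also the ratio's lower term. The 4 diets overlapped in this ratio.

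**Figure D1:**
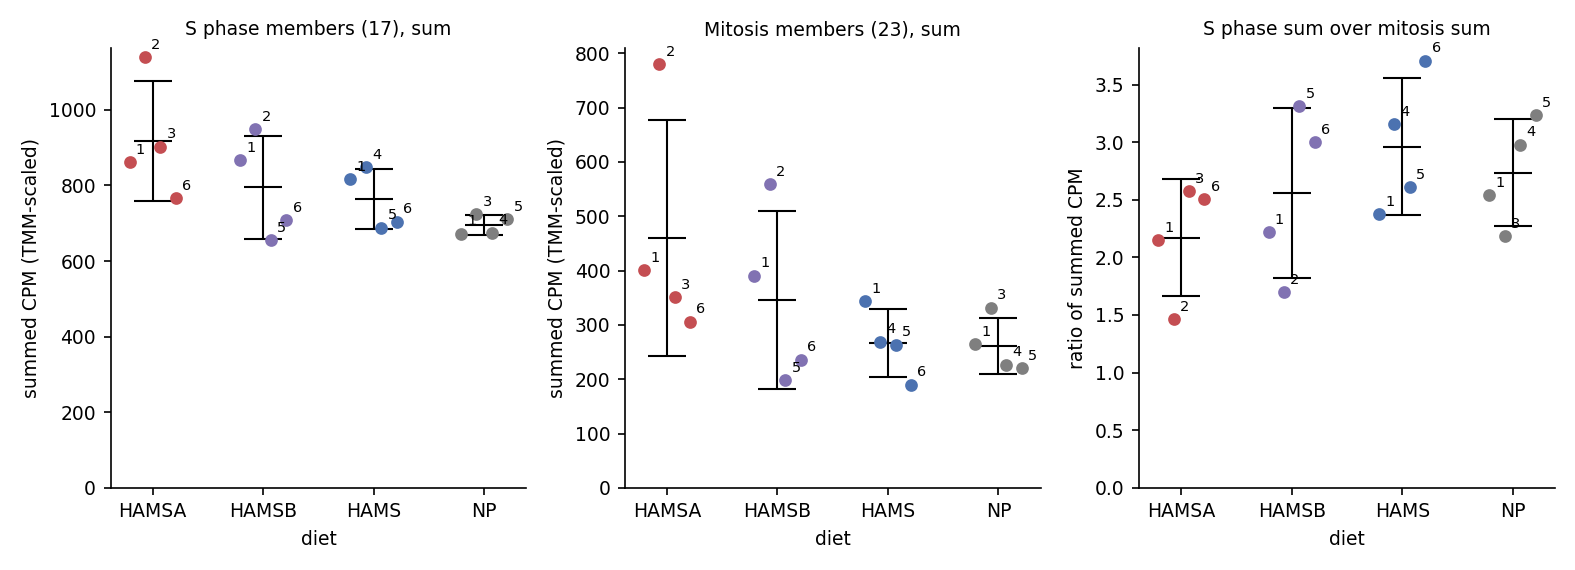
Summed CPM of the 17 S phase members (left) and the 23 mitosis members (middle), and the ratio of these sums (right), with 1 point for each library, the library's number beside it, and the mean and SD of 4 libraries in black. HAMSA 2 has the highest sums (1140 and 780 CPM) and the lowest ratio (1.46), and the mitosis sums of the HAMSA and HAMSB libraries are more widely spread than those of HAMS and NP.

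The members moved together from library to library. HAMSA 2 had the highest value of all 16 libraries for 37 of the 40 members. The exceptions were Cdt1, highest in HAMS 4, Tk1, highest in NP 5, and Mcm4, highest in HAMSB 2. HAMS 6 had the lowest value for 19 members and HAMSB 5 for 13. Within diets the same libraries led for most genes: HAMSA 2 was the highest of its diet for 38 members, HAMSB 2 for 37, HAMS 1 for 30 and NP 3 for 30. HAMSB 5 was the lowest of its diet for 35 members, HAMS 6 for 32 and HAMSA 6 for 31. The 6 libraries numbered 5 or 6 had mitosis sums of 190 to 306 CPM (median 228), and the 10 libraries numbered 1 to 4 had sums of 226 to 780 CPM (median 347); the labels give these numbers no meaning. The share of reads outside exons also differed between libraries and followed the order of the mitosis sums only in part. It was lowest in HAMSA 2, at 9.76%, and highest in HAMSB 5, at 16.9%, while HAMSB 2 had 12.6% and HAMS 6 14.8%. HAMS 4 had the second lowest share, 11.15%, with a mitosis sum of 269 CPM. NP 3 had a share of 15.04% with a mitosis sum of 332 CPM. HAMSB 5 also had the highest share of unmapped reads, at 10.2%. The part of these shares in the members' levels was not tested beyond the covariate given with the comparisons.

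**Figure D2:**
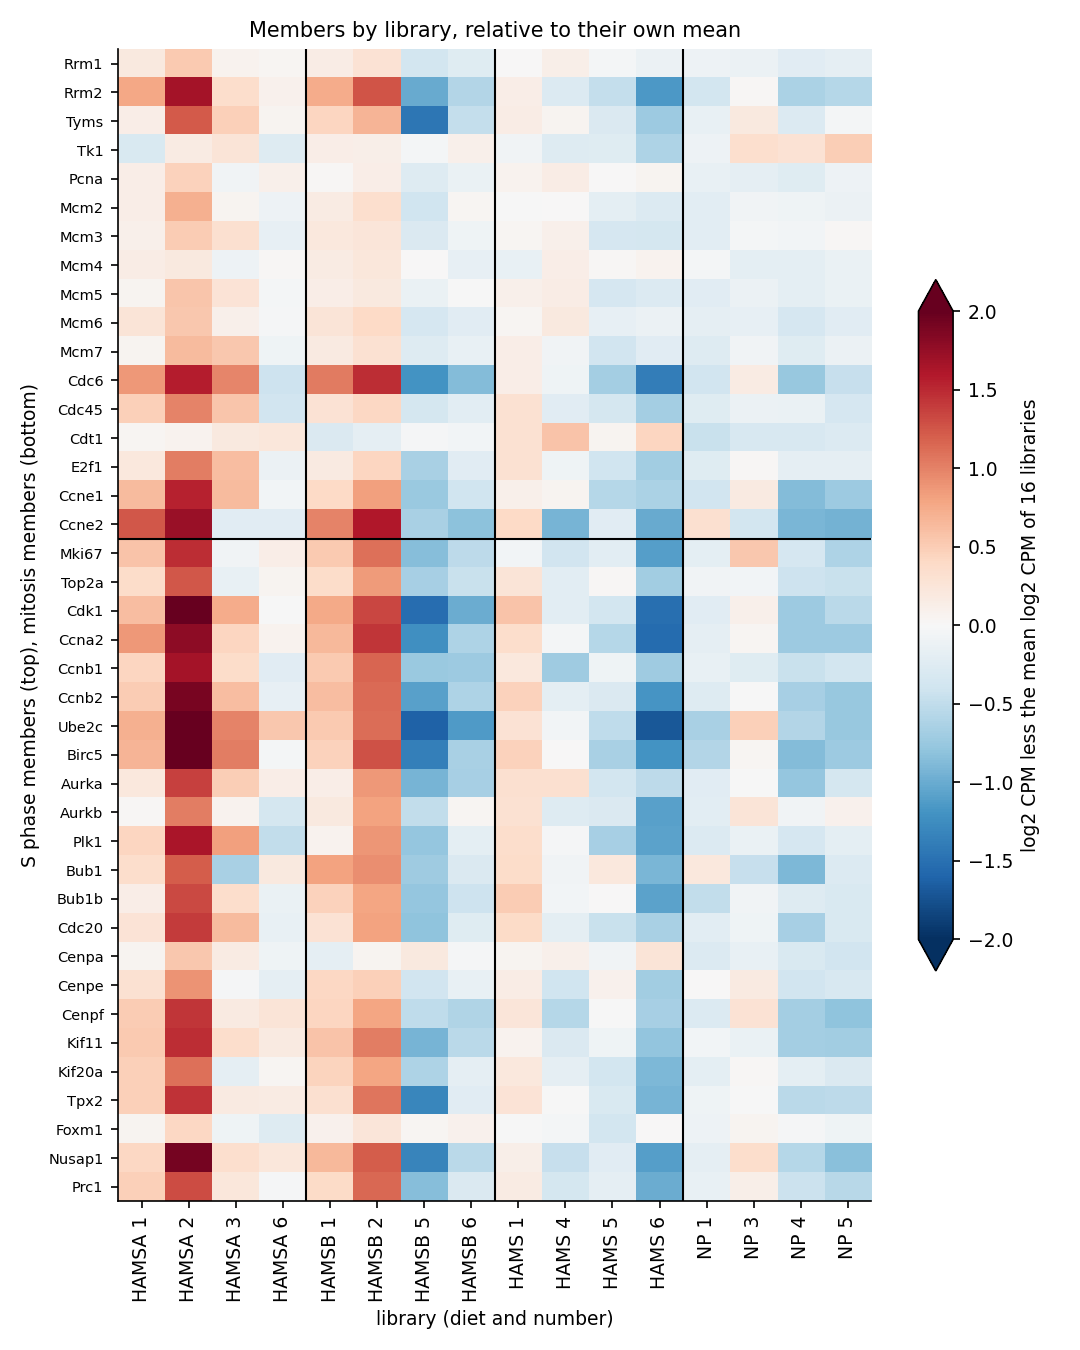
Each row is 1 member and each column 1 library; colour gives the log2 CPM less the mean log2 CPM of that member over the 16 libraries, and values beyond 2 in size share the end colours. The columns of HAMSA 2 and HAMSB 2 are red and those of HAMSB 5 and HAMS 6 blue in nearly every row. Mcm4 (1.34-fold between its highest and lowest library), Pcna (1.65-fold) and Foxm1 (1.72-fold) have the palest rows.

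Between the acetylated starch and plain HAMS, 0 of the 40 members passed the test. The quasi-likelihood test of edgeR was used, Benjamini-Hochberg adjusted over all 15021 genes at 0.05, and 0% of all genes passed it. DESeq2 called 0 members, where it called 0.686% of all genes, and limma voom called 0 members and 0% of all genes. At an unadjusted p under 0.05, 22 members were higher and 1 was lower in HAMSA, where 6.27% and 5.39% of all genes were. The fitted fold change was positive for 39 of the 40 members, with Cdt1 as the exception, and for 50% of all genes. The median log2 fold change of HAMSA against HAMS was 0.34 over the S phase members and 0.87 over the mitosis members, while the median over all genes lay between -0.00395 and 0.0124 in each of the 6 comparisons. These medians are not tests: the members share libraries and were chosen with results of these data known.

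Ube2c, which encodes the ubiquitin-conjugating enzyme of the anaphase-promoting complex, had the smallest p of the mitosis members in this comparison. Its values were 11.99, 37.0, 14.6 and 10.6 CPM in HAMSA, against 8.93, 7.07, 5.14 and 2.26 CPM in HAMS. The libraries did not overlap, and HAMSA 2 stood far above the other HAMSA libraries. The log2 fold change was 1.66 ± 0.58 (SE), with an adjusted p of 0.333 by edgeR. Birc5 had a log2 fold change of 1.39 ± 0.53 (adjusted p = 0.372 by edgeR) and Nusap1, which encodes a microtubule-binding spindle protein, 1.26 ± 0.50 (adjusted p = 0.380 by edgeR). Of the S phase members, Ccne1 had 13.8, 25.9, 13.9 and 8.58 CPM in HAMSA, against 9.60, 9.22, 6.02 and 5.78 CPM in HAMS, a log2 fold change of 1.02 ± 0.37 (adjusted p = 0.345 by edgeR). Here HAMSA 6 lay within the HAMS range. Rrm2 had a log2 fold change of 1.22 ± 0.44 (adjusted p = 0.353 by edgeR) and Mcm7, a subunit gene of the replicative helicase, 0.44 ± 0.16 (adjusted p = 0.354 by edgeR). The libraries of HAMSA and HAMS did not overlap for 3 members, all higher in HAMSA and all of mitosis, where 2.7% of all genes were higher without overlap. Without HAMSA 2 the median log2 fold change was 0.22 over the S phase members and 0.49 over the mitosis members, and with the outside-exon read share of each library as a covariate the mitosis median was 0.14 and the S phase median 0.044.

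Between the butyrylated starch and HAMS, Cdt1 fell and no other member passed the test, 1 of 40 lower where 1.24% of all genes were lower and 1.68% were called in either direction. Cdt1 had 71.8, 77.5, 86.6 and 84.3 CPM in HAMSB, against 109, 130, 90.8 and 118 CPM in HAMS. Every HAMS library was above every HAMSB library. The log2 fold change was -0.48 ± 0.10 (SE), with an adjusted p of 0.0202 by edgeR, and DESeq2 (4.27% of all genes called) and limma voom (1.76%) also called Cdt1 and no other member. Leaving out HAMS 4, HAMS 6, HAMSB 1 or HAMSB 2 in turn ended the call, with log2 fold changes from -0.57 to -0.40 over the 8 omissions and an adjusted p of at most 0.0846 by edgeR. The call was also absent when the fit held only the 2 diets compared (adjusted p = 0.167 by edgeR).

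The other members were mostly at somewhat higher values in HAMSB without passing the test. Of 40 fitted fold changes 36 were positive, where 50.9% of all genes were, and the median log2 fold change was 0.16 over the S phase members and 0.46 over the mitosis members. At an unadjusted p under 0.05, 1 member was higher (6.69% of all genes) and 1 was lower (7.4% of all genes). The higher one was Tk1, the gene of thymidine kinase, which salvages thymidine for DNA synthesis. It had 38.0, 37.5, 33.9 and 37.1 CPM in HAMSB, against 33.2, 28.9, 29.4 and 22.6 CPM in HAMS, with no overlap and a log2 fold change of 0.36 ± 0.15 (adjusted p = 0.282 by edgeR). Foxm1 was the other member whose HAMSB libraries all lay above HAMS, where 3.19% of all genes did, and Cdt1 the 1 whose libraries all lay below, where 4.11% did. Cdc6 had 11.3, 15.4, 2.41 and 3.02 CPM in HAMSB, against 6.01, 5.20, 3.42 and 2.10 CPM in HAMS. HAMSB libraries 1 and 2 lay above the HAMS range, while libraries 5 and 6 lay within it, and the log2 fold change was 0.94 ± 0.53 (adjusted p = 0.457 by edgeR). Foxm1 had a log2 fold change of 0.21 ± 0.13, Mki67 one of 0.66 ± 0.41 and Prc1, which encodes a spindle midzone protein, one of 0.58 ± 0.38, with adjusted p-values of 0.498, 0.510 and 0.527 by edgeR. Without HAMSB 2 the medians were 0.060 over the S phase members and 0.049 over the mitosis members. Among the libraries numbered 5 or 6 alone they were -0.012 and -0.092.

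HAMSA against HAMSB gave 0 members past edgeR's test, where 0.779% of all genes passed it. DESeq2 called 0 members (5.08% of all genes) and limma voom 0 (0.573%). At an unadjusted p under 0.05, 1 member was higher and 0 were lower by edgeR, where 10.3% and 9.15% of all genes were. That member was Cdt1, with 90.1, 92.0, 99.9 and 103 CPM in HAMSA, against 71.8, 77.5, 86.6 and 84.3 CPM in HAMSB. The libraries did not overlap, as in 4.65% of all genes in that direction, and the log2 fold change was 0.26 ± 0.10 (adjusted p = 0.197 by edgeR). Ube2c had 11.99, 37.0, 14.6 and 10.6 CPM in HAMSA, against 10.6, 15.96, 2.39 and 3.35 CPM in HAMSB, and these ranges overlapped (log2 fold change 1.20 ± 0.57, adjusted p = 0.259 by edgeR). Pcna had a log2 fold change of 0.22 ± 0.11, E2f1 one of 0.51 ± 0.26, Birc5 one of 0.90 ± 0.53 and Aurka, a kinase gene of the spindle poles, one of 0.62 ± 0.37, with adjusted p-values from 0.261 to 0.338 by edgeR. The median log2 fold change was 0.25 over the S phase members and 0.47 over the mitosis members. Without HAMSA 2 these were 0.059 and 0.036, and with the outside-exon read share as a covariate they were -0.20 and -0.37. That share was 9.76 to 12.1% in the HAMSA libraries and 12.6 to 16.9% in the HAMSB libraries, without overlap. Here, too, the covariate cannot be separated from diet.

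**Figure D3:**
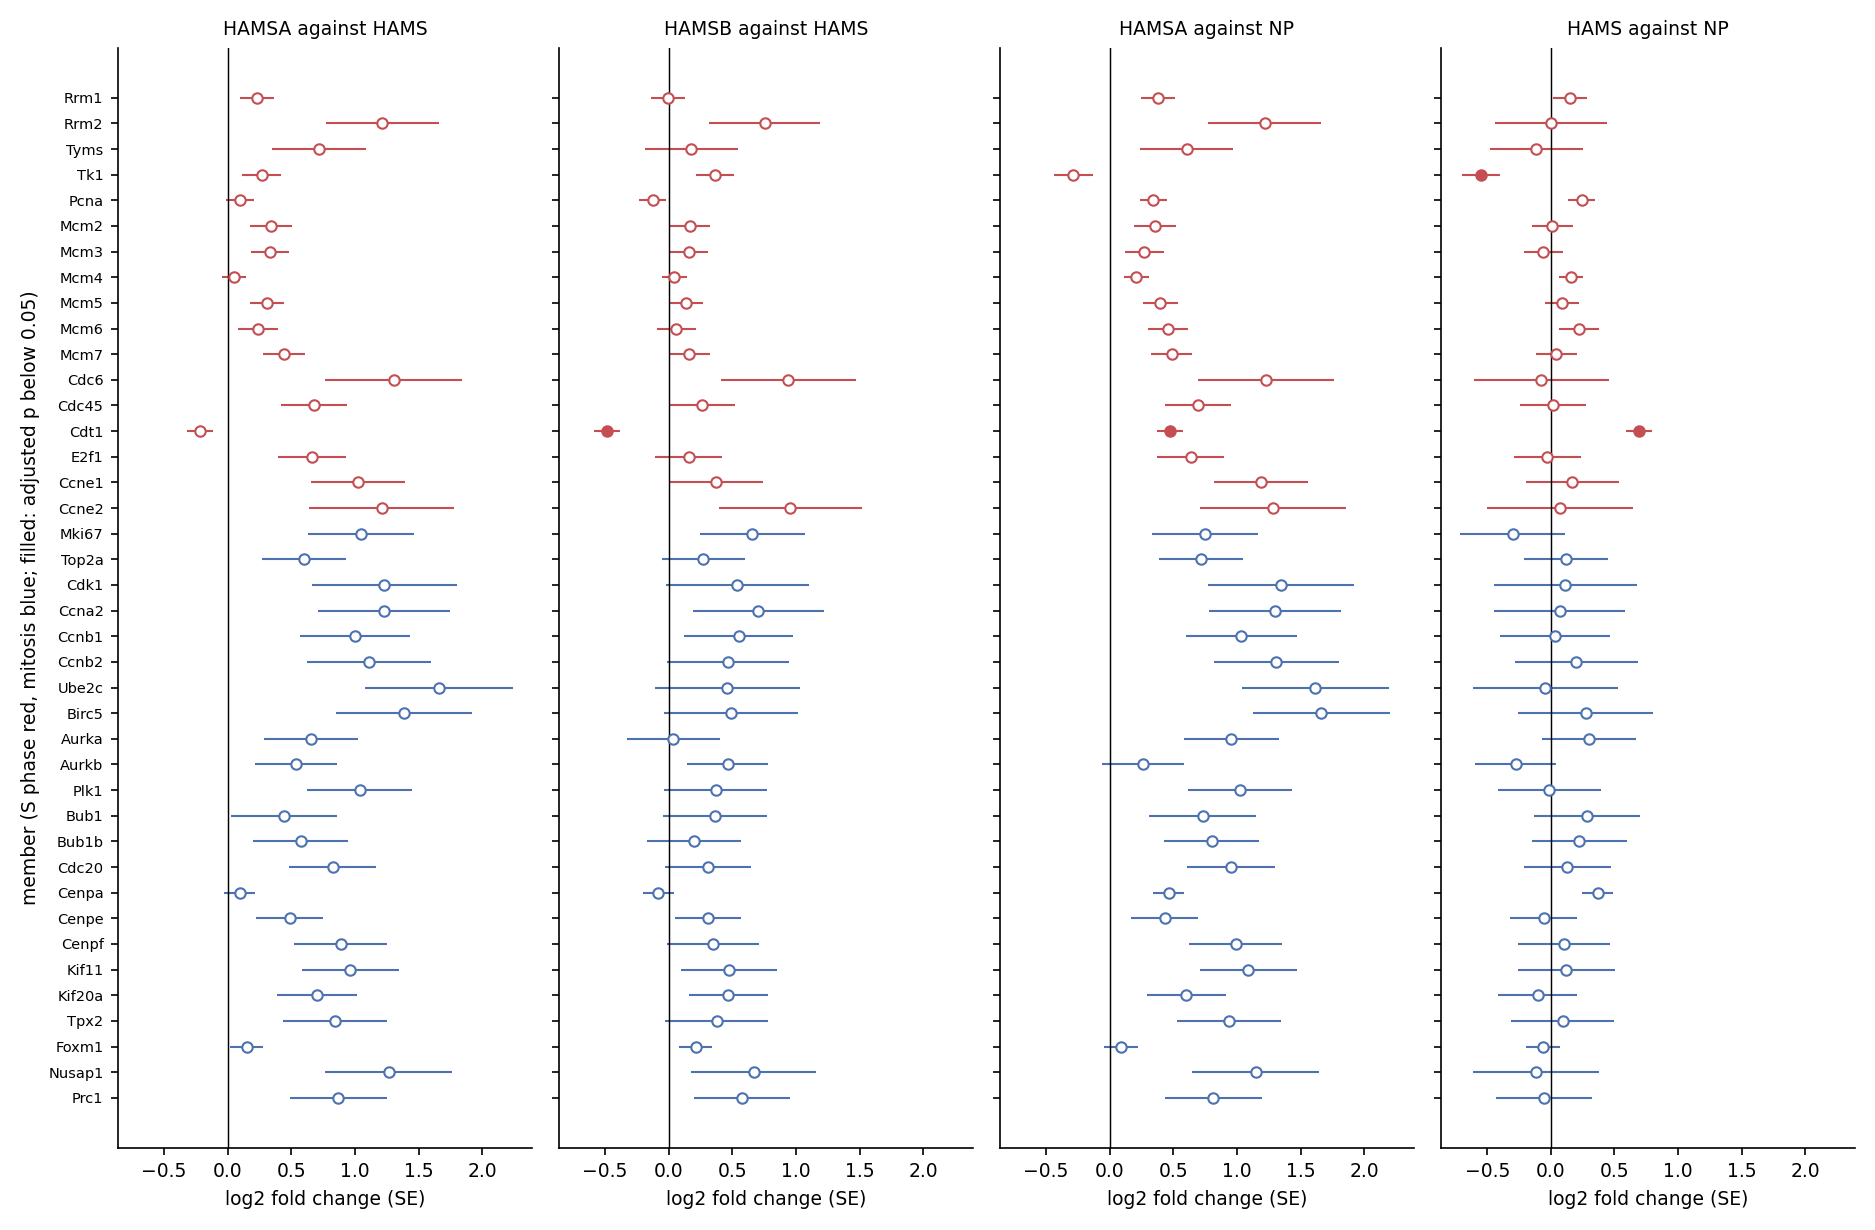
Fitted log2 fold change (point) and its standard error (bar) of each member in 4 of the 6 comparisons, S phase members in red and mitosis members in blue; a filled point has an adjusted p below 0.05 by edgeR. Most points of HAMSA against HAMS and against NP lie right of 0 with wide bars, and the filled points are Cdt1 in 3 panels and Tk1 in HAMS against NP.

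Against NP, Cdt1 rose in HAMSA and no other member passed edgeR's test, 1 of 40 higher where 0.606% of all genes were higher. Cdt1 had 90.1, 92.0, 99.9 and 103 CPM in HAMSA, against 64.3, 70.1, 70.3 and 72.3 CPM in NP. The libraries did not overlap, and the log2 fold change was 0.47 ± 0.10 (SE), with an adjusted p of 0.0387 by edgeR. DESeq2 called 7 members, all higher in HAMSA (Rrm2, Pcna, Cdt1, Ccne1, Birc5, Cenpa and Kif11), where it called 8.63% of all genes, and limma voom called 0 (0.553% of all genes). Cenpa had 42.3, 59.2, 45.5 and 38.4 CPM in HAMSA, against 33.7, 36.6, 33.0 and 31.2 CPM in NP. Again no HAMSA library overlapped with NP, and the log2 fold change was 0.46 ± 0.12 (adjusted p = 0.0617 by edgeR).

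At an unadjusted p under 0.05, 31 of the 40 members were higher in HAMSA than in NP by edgeR and 0 were lower, where 13.3% and 11.8% of all genes were. The libraries did not overlap for 12 members, 6 of each role and all higher in HAMSA, where 7.72% of all genes were higher without overlap. The median log2 fold change was 0.47 over the S phase members and 0.96 over the mitosis members. Tk1 alone had a negative one, of -0.29 ± 0.15. The counts at an unadjusted p and without overlap were not recomputed with libraries left out. Calls at an adjusted p turned on single libraries. Without HAMSA 6 edgeR called 4 members (Cdc45, Cdt1, Ccne1 and Cenpa, background 3.85%), and without any other of the 8 HAMSA and NP libraries 0. EdgeR lost the call of Cdt1 without HAMS 6, HAMSB 1 or HAMSB 6 as well. With libraries numbered 1 to 4 alone it called 25 members, where it called 17.6% of all genes, and with those numbered 5 or 6 alone, 1 library of each diet, it called 0. Without HAMSA 2 the medians were 0.34 and 0.55. With the outside-exon read share as a covariate they were 0.016 and -0.087, so that the mitosis median changed sign, and edgeR called 0 members. That share was 9.76 to 12.1% in the HAMSA libraries and 13.95 to 15.5% in the NP libraries, without overlap. The covariate therefore cannot be separated from diet in this comparison.

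HAMSB against NP gave 0 members past edgeR's test, where 0.0732% of all genes passed it. DESeq2 called 0 members (0.826% of all genes) and limma voom 0 (0.14%). At an unadjusted p under 0.05, 2 members were higher and 0 were lower by edgeR, where 3.36% and 3.53% of all genes were. These were Cenpa, with 35.7, 42.1, 46.3 and 40.1 CPM in HAMSB, against 33.7, 36.6, 33.0 and 31.2 CPM in NP, and Mcm4. The HAMSB range of Cenpa overlapped with that of NP through library 1, and the log2 fold change was 0.29 ± 0.12 (adjusted p = 0.651 by edgeR). Mcm4 had 92.1, 96.5, 82.4 and 73.5 CPM in HAMSB, against 80.0, 72.02, 72.03 and 75.0 CPM in NP, also with overlap (log2 fold change 0.20 ± 0.10, adjusted p = 0.723 by edgeR). The median log2 fold change was 0.21 over the S phase members and 0.44 over the mitosis members, and 0.14 and 0.11 without HAMSB 2. With libraries numbered 1 to 4 alone edgeR called 1 member, Cdc6, where it called 0.612% of all genes.

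Between HAMS and NP, Cdt1 rose and Tk1 fell, 1 member in each direction where 2.27% of all genes were higher, 2.06% were lower and 4.33% were called in either direction. Cdt1 had 109, 130, 90.8 and 118 CPM in HAMS, against 64.3, 70.1, 70.3 and 72.3 CPM in NP. The lowest HAMS library was above the highest NP library, and the log2 fold change was 0.69 ± 0.10 (SE), with an adjusted p of 0.00162 by edgeR. This call held in all 16 omissions of 1 library, and the fold change stayed between 0.60 and 0.78 over the 8 omissions of a HAMS or NP library. DESeq2 and limma voom also called Cdt1. Cdt1 was the 1 member called in a test of any difference among the 4 diets (adjusted p = 0.00418 by edgeR, where 3.78% of all genes were called).

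Tk1 had 33.2, 28.9, 29.4 and 22.6 CPM in HAMS, against 32.3, 43.6, 42.4 and 48.8 CPM in NP. HAMS 1 lay above NP 1, so the ranges overlapped, while the other HAMS libraries were below all NP libraries. The log2 fold change was -0.55 ± 0.15 (SE), with an adjusted p of 0.0491 by edgeR. The call was lost without HAMS 4, HAMS 5, HAMS 6, NP 3, NP 4 or NP 5, with an adjusted p of up to 0.154, and without HAMSA 2 or any of the 4 HAMSB libraries, with one of up to 0.0648. DESeq2 (8.42% of all genes) called Cenpa as well, with an adjusted p of 0.0481, and limma voom (4.83%) called Cdt1 and Tk1 alone. Cenpa had 42.3, 43.8, 38.8 and 48.7 CPM in HAMS, against 33.7, 36.6, 33.0 and 31.2 CPM in NP, with no overlap and a log2 fold change of 0.37 ± 0.12 (adjusted p = 0.110 by edgeR). At an unadjusted p under 0.05, 3 members were higher and 1 was lower in HAMS by edgeR, where 9.35% and 9.98% of all genes were. Over all S phase members the median log2 fold change was 0.043 and over all mitosis members 0.094. The libraries did not overlap for 4 members, all higher in HAMS (Cdt1, Cenpa, Pcna and Mcm6), where 6.06% of all genes were higher without overlap.

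**Figure D4:**
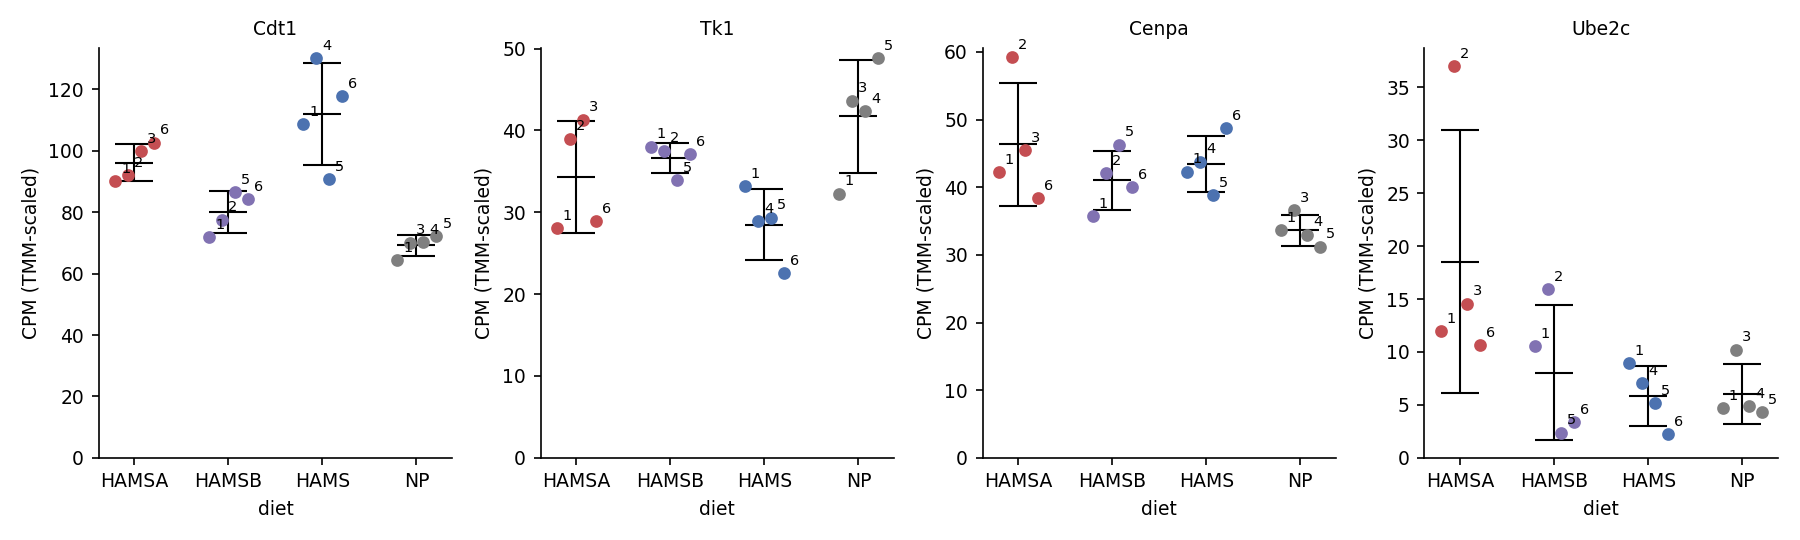
CPM of Cdt1, Tk1, Cenpa and Ube2c with 1 point for each library, the library's number beside it, and the mean and SD of 4 libraries in black. Cdt1 is highest in HAMS (90.8 to 130 CPM) and lowest in NP (64.3 to 72.3 CPM), Tk1 is highest in NP and lowest in HAMS, Cenpa is lowest in NP, and in Ube2c the point of HAMSA 2 (37.0 CPM) lies apart.

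Cdt1 was the only member with its highest mean in HAMS. Its mean was 96.2 ± 6.06 CPM in HAMSA, 80.1 ± 6.71 CPM in HAMSB, 112 ± 16.6 CPM in HAMS and 69.3 ± 3.43 CPM in NP (SD, n = 4 each). From high to low the order was HAMS, HAMSA, HAMSB and NP. HAMS overlapped with its neighbour HAMSA, HAMSA and HAMSB did not overlap but did not differ past the test, and HAMSB 1 lay within the NP range (log2 fold change of HAMSB against NP 0.21 ± 0.10, adjusted p = 0.747 by edgeR). Within HAMSA the values of Cdt1 stayed between 90.1 and 103 CPM, and HAMSA 2, at 92.0 CPM, was not the highest. The comparisons of HAMSA, HAMSB and HAMS with each other and with NP share libraries, so they are not independent. In the GENCODE M21 annotation Cdt1 overlaps Gm20388 on the same strand, and that gene had 0 counts in the table, against 46219 for Cdt1.

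Other genes of the cycle were taken from lists fixed with earlier results known. The 34 other replication genes had medians close to those of the S phase members in HAMSA against HAMS (log2 fold change 0.29) and against NP (0.37). They held 1 called gene in HAMSB against HAMS (higher), 1 in HAMSA against NP (higher) and 2 in HAMS against NP (1 higher, 1 lower), and 0 in the other 3 comparisons. Of all genes, 0.433% rose in HAMSB against HAMS, 0.606% rose in HAMSA against NP, and 2.27% rose and 2.06% fell in HAMS against NP. Slbp, which encodes the binding protein of histone mRNA stem-loops, rose in HAMSA against NP (log2 fold change 0.41 ± 0.089, adjusted p = 0.0422 by edgeR) and in HAMS against NP (0.36 ± 0.089, adjusted p = 0.0326 by edgeR). It had 84.7, 95.0, 81.1 and 77.4 CPM in HAMSA, 67.2, 74.7, 59.2 and 58.5 CPM in HAMSB, 79.9, 82.4, 81.1 and 83.7 CPM in HAMS and 66.0, 68.0, 59.6 and 61.8 CPM in NP. Both HAMSA and HAMS were above all NP libraries, while HAMSB overlapped with NP. Timeless, which encodes a replication fork protection protein, rose in HAMSB against HAMS (0.51 ± 0.12, adjusted p = 0.0392 by edgeR) and fell in HAMS against NP (-0.44 ± 0.12, adjusted p = 0.0482 by edgeR). Its values were 27.2, 27.5, 27.2 and 30.6 CPM in HAMSB, 19.9, 20.7, 19.7 and 18.5 CPM in HAMS and 22.8, 28.1, 29.1 and 26.8 CPM in NP, with HAMS below every library of the other two. The call of Timeless in HAMSB against HAMS was lost in each of the 8 omissions of 1 library of these diets, with an adjusted p of up to 0.12. That of Timeless in HAMS against NP was kept in 1 of 8, and those of Slbp in 1 of 8 in HAMSA against NP and in 2 of 8 in HAMS against NP. Where no gene of this list was called, the smallest p was that of Chaf1b in HAMSA against HAMS (0.87 ± 0.27, adjusted p = 0.316), Slbp in HAMSA against HAMSB (0.38 ± 0.089, adjusted p = 0.0604) and Rpa1 in HAMSB against NP (0.19 ± 0.087, adjusted p = 0.714, all by edgeR).

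None of the 46 other mitosis genes was called by edgeR in any of the 6 comparisons; at an unadjusted p under 0.05, 16 were higher in HAMSA against HAMS and 22 in HAMSA against NP, where 6.27% and 13.3% of all genes were. In each of the other comparisons 1 to 3 of the 46 were higher, a smaller share than that of all genes, and in HAMS against NP 1 was lower. DESeq2 called 5 of them in HAMSA against NP, where it called 8.63% of all genes, and 0 in the other comparisons, and limma voom called 0 in all 6. The median log2 fold change was 0.62 in HAMSA against HAMS and 0.72 in HAMSA against NP. Espl1, the gene of separase, had the smallest p in the first (0.96 ± 0.31, adjusted p = 0.320 by edgeR), and Pttg1, the gene of securin, in the second (1.17 ± 0.31, adjusted p = 0.0608 by edgeR). Pttg1 had 7.75, 16.99, 11.4 and 7.25 CPM in HAMSA, against 3.93, 6.47, 4.39 and 4.52 CPM in NP, with no overlap.

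Of the 10 cyclins, kinases and activator E2Fs that act before S phase, Ccnd2, the gene of cyclin D2, was the one called, in a comparison where 2.27% of all genes rose. It rose in HAMS against NP, with 94.3, 146, 133 and 206 CPM in HAMS, against 87.3, 65.0, 68.3 and 53.1 CPM in NP (log2 fold change 1.08 ± 0.23, adjusted p = 0.0154 by edgeR). The lowest HAMS library was above the highest NP library. The call was kept in 4 of the 8 omissions of a HAMS or NP library. In HAMSA against HAMS its log2 fold change was -0.66 ± 0.23 (adjusted p = 0.333 by edgeR).

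Among the 24 genes listed as brakes of the cycle or parts of complexes with such a role, 4 rose in HAMS against NP. In HAMSB against HAMS 4 fell, with 1 higher in HAMSA against NP and 0 called in the other 3 comparisons. Of all genes, 2.27% rose in HAMS against NP, 1.24% fell in HAMSB against HAMS and 0.606% rose in HAMSA against NP. Btg2, an antiproliferative gene, had 293, 282, 331 and 328 CPM in HAMSA, 289, 316, 256 and 264 CPM in HAMSB, 402, 407, 327 and 356 CPM in HAMS and 225, 222, 208 and 243 CPM in NP. NP was below every library of the other diets, and Btg2 rose in HAMS (0.73 ± 0.099, adjusted p = 0.00132 by edgeR) and in HAMSA (0.46 ± 0.099, adjusted p = 0.0395 by edgeR) against NP. In HAMSB it fell against HAMS by 0.41 on the log2 scale (adjusted p = 0.04998 by edgeR). Tob2, of the same family, had 83.7, 79.2, 83.2 and 90.5 CPM in HAMSB, 116, 182, 132 and 152 CPM in HAMS and 75.0, 80.1, 70.7 and 85.0 CPM in NP. It fell in HAMSB against HAMS (-0.79 ± 0.16, adjusted p = 0.0183 by edgeR) and rose in HAMS against NP (0.91 ± 0.16, adjusted p = 0.00618 by edgeR). Cdkn1a, which encodes a CDK inhibitor induced by p53, fell in HAMSB against HAMS (-0.85 ± 0.17, adjusted p = 0.0160 by edgeR) and rose in HAMS against NP (0.77 ± 0.17, adjusted p = 0.0183 by edgeR). Btg1 fell in HAMSB against HAMS (-0.44 ± 0.10, adjusted p = 0.0379 by edgeR), and Tob1 rose in HAMS against NP (0.51 ± 0.14, adjusted p = 0.0452 by edgeR). Over the 8 omissions of a library of the diets compared, Btg2 and Tob2 in HAMS against NP kept their calls in all 8. Cdkn1a kept its call in 5 in HAMSB against HAMS and in 4 in HAMS against NP, and the others of these calls were kept in at most 3.

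Markers of other cells moved with the mitosis members in part. In HAMSA against HAMS, 18 of the 19 erythroid markers were tested and all 18 had positive fold changes, with a median of 4.19 on the log2 scale. Each had an unadjusted p under 0.05 by edgeR, where 6.27% of all genes were higher at that level. At an adjusted p edgeR called 0 of them, as it called 0% of all genes. DESeq2 called 11 of them, where it called 0.686% of all genes. Hba-a2 was at 0 in 8 libraries. The erythroid sum was 1712, 6694, 635 and 6379 CPM in HAMSA, 818, 1734, 69.2 and 62.4 CPM in HAMSB, 101, 144, 45.5 and 127 CPM in HAMS and 377, 1584, 221 and 92.3 CPM in NP. HAMSA 2 had the highest mitosis sum and the highest erythroid sum. HAMSA 6 had nearly as high an erythroid sum, and its mitosis sum was 306 CPM. A sum weighs abundant markers most, and the erythroid markers did not differ by the same amount. In HAMSA against HAMSB their log2 fold changes ran from 0.39 to 3.04, with a median of 0.89. The part of erythroid cells in the mitosis sums was not tested. Leaving out HAMSA 2 and HAMSA 6 together, a setting chosen after seeing the data, the mitosis median of HAMSA against HAMS was 0.62, and Cdt1 was no longer called in HAMSA against NP.

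The 9 T cell markers summed to 142, 130, 33.9 and 70.6 CPM in HAMSA, 115, 184, 65.0 and 31.5 CPM in HAMSB, 29.3, 36.6, 16.2 and 87.1 CPM in HAMS and 45.98, 22.9, 19.9 and 16.6 CPM in NP. The 3 libraries with the highest mitosis sums had the 3 highest T cell sums, while HAMS 6, with the lowest mitosis sum, had the fifth highest. The 13 markers of neutrophils and their precursors summed to 78.6 to 322 CPM in HAMSA, 42.9 to 255 CPM in HAMSB, 5.87 to 112 CPM in HAMS and 9.13 to 64.5 CPM in NP, and were highest in HAMSA 2 and HAMSB 2. The sum of the germinal centre markers went another way. It was 163 to 279 CPM over all libraries and highest in HAMSB 5, which had the second lowest mitosis sum. Its markers did not move together in HAMSB against HAMS. There 6 of the 8 tested had negative fold changes and 2 positive ones, with a median of -0.24 on the log2 scale. EdgeR called 1 of the 8, as higher, where 0.433% of all genes were higher. Of the 9 germinal centre markers Mef2b was at 0 in all 16 libraries. Plasma cell markers summed to 1815 to 2403 CPM in HAMSA, 1193 to 1800 CPM in HAMSB, 1444 to 2167 CPM in HAMS and 1455 to 1765 CPM in NP. NK cell markers summed to 11.9 to 68.4 CPM, highest in HAMSB 2, and platelet and megakaryocyte markers to 217 to 758 CPM, highest in HAMS 6. Macrophage markers were highest in NP, at 139 to 277 CPM, against 50.9 to 127 CPM in the other diets. EdgeR called 9 of the 11 lower in HAMS against NP, where 2.06% of all genes were lower. It called 2 lower in HAMSB against NP, where 0.0732% of all genes were called. In HAMSA against NP it called 1 lower, where 121 of the 15021 genes tested were lower. The part of these cells in the levels of the 40 genes was not tested.

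**Figure D5:**
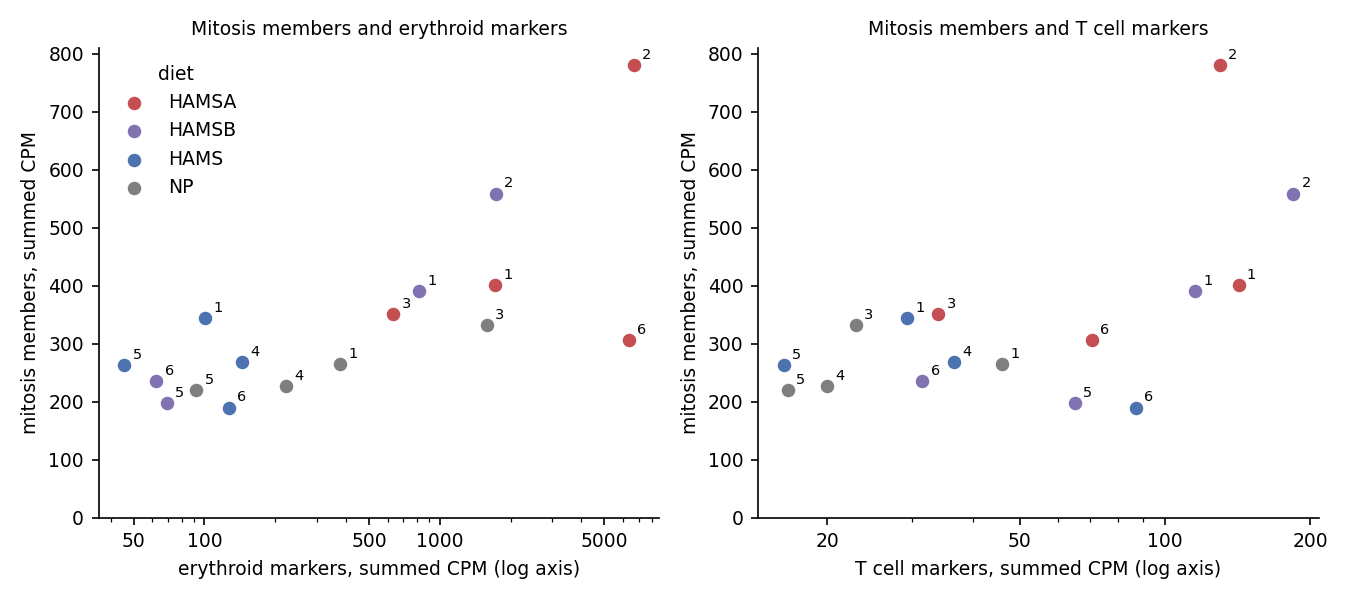
Summed CPM of the 23 mitosis members in each library against the summed CPM of the erythroid markers (left) and of the T cell markers (right), both on a log axis, with the library's number beside each point. HAMSA 2 and HAMSA 6 have similar erythroid sums (6694 and 6379 CPM) and mitosis sums of 780 and 306 CPM.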

How the data were processed

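The deposited table holds whole-number read counts per gene for the 16 libraries. Per the labels' protocols, poly(A) stranded libraries were made from negatively selected splenic B cells. Per the submitters' processing notes, STAR, featureCounts of Subread, edgeR and limma were used by the authors; no versions are given, and the genome build is not given in the sources used here. All columns were mapped to a sample by name.

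Genes were kept by filterByExpr with a minimum count of 10 (15021 of 39179; all 40 members), scaled by TMM and fitted with edgeR 4.0.16 in R 4.3.3 as 4 diets over 16 libraries (12 residual degrees of freedom, biological coefficient of variation 22.1%). Adjusted p-values are Benjamini-Hochberg over all genes tested, called below 0.05, and two-sided. CPM are TMM-scaled and SE come from the F statistic. DESeq2 1.42.0 and limma voom 3.58.1 were alternatives, beside other scaling, filters, a replicate block, parts of the libraries, thinning and omission of each library. The test was also run on simulated data with known answers. Gene lengths are merged exons of GENCODE M21, and promoters are those of RefSeq on GRCm38.p6. No 2 libraries were duplicates (highest correlation of log2 CPM 0.992). The members and lists were chosen with earlier results of these data known. Fold changes are given for members past the test and for those with the smallest p by role, and for other lists by the same rule.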

Additional observations from a re-analysis of the deposited data

Results flagged for a closer look

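The 168 sets looked at each held the 4 values of a member or a sum in 1 diet. In 5 of them 1 library lay far from the other 3 by Dixon's criterion at 95%. Chance flags about 1 in 20 sets, a larger share than was seen. The sets share libraries and are not independent. In HAMSA, library 2 stood above the other 3 for Ube2c, with 36.98 CPM against 10.6 to 14.6 CPM. It did so for Tpx2, which encodes a spindle assembly factor, with 23.98 CPM against 9.79 to 12.2 CPM, and for Nusap1, with 27.85 CPM against 8.58 to 9.84 CPM. In NP, library 3 had 10.22 CPM of Ube2c, against 4.31 to 4.90 CPM in the other 3 libraries. In HAMS, library 5 had 11.42 CPM of Foxm1, below the 14.4 to 14.8 CPM of the other 3 libraries.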

How the results depend on the processing

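Of 1892 values recomputed under the alternatives, 1638 kept their direction and their side of the threshold or moved within the spread, 180 lost their call, 16 gained one, 49 moved and 9 reversed; the cause was not tested. In HAMSB against HAMS the 1 member called became 0 with the replicate block, with libraries numbered 5 or 6 alone, with only the 2 diets fitted and without HAMSA 2 and HAMSB 2, and 0 to 1 when 1 library was left out. In HAMSA against NP the 1 member became 7 with DESeq2 and 25 with libraries numbered 1 to 4. It became 0 with limma voom, no filter, the block, numbers 5 and 6, the outside-exon covariate and both added omissions, and 0 to 4 when 1 library was left out. In HAMSB against NP numbers 1 to 4 gave 1 member. In HAMS against NP the 2 members became 1 with RLE scaling, no filter, the block, numbers 1 to 4, thinning, only the 2 diets and both added omissions, 0 with numbers 5 and 6, and 1 to 2 when 1 library was left out. For any difference among diets DESeq2 gave 3 members. Over the settings other than omissions of 1 library, 264 to 1894 genes were called for any difference. The count of 3 is therefore not read as a result about the members. With the outside-exon covariate the mitosis median was 0.142 in HAMSA against HAMS, -0.369 in HAMSA against HAMSB and -0.0874 in HAMSA against NP. The S phase median was -0.198 in HAMSA against HAMSB and 0.016 in HAMSA against NP. In the outside-exon share HAMSA overlapped with neither HAMSB nor NP, so the covariate cannot be separated from diet there. With numbers 5 and 6 alone the S phase median was 0.0908 in HAMSA against NP and -0.175 in HAMS against NP. Reversed with numbers 5 and 6 were Cdc6 (-0.0192), Mki67 (-0.0921), Prc1 (-0.00318) and Anln (-0.0609) in HAMSB against HAMS, and Cdc25b (-0.0253) in HAMS against NP. Reversed with the covariate in HAMSA against HAMSB were E2f1 (-0.129), Ube2c (-0.0269), Birc5 (-0.409) and Aurka (-0.347).

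The labels give the numbers no meaning, and same-numbered libraries did not all deviate together: of 15 pairs, 8 correlated above 0.1, from -0.25 to 0.49 (HAMSA 2 with HAMSB 2). The numbers were not used as pairs, and whether some mark a shared batch was not tested. With the block the log2 fold change of Cdt1 was -0.42 in HAMSB against HAMS (adjusted p = 0.0943 by edgeR), 0.50 in HAMSA against NP (0.141) and 0.68 in HAMS against NP (0.0108). Scaling by library totals moved the median of all genes by less than 0.1 and split the calls 142 higher and 141 lower in HAMSB against HAMS (65 and 187 by TMM), 84 and 260 in HAMSA against NP (91 and 121), and 225 and 573 in HAMS against NP (341 and 309). Over the settings other than omissions of 1 library, 0 to 103 genes were called in HAMSA against HAMS (0 in the fit reported). The counts were 74 to 603 in HAMSB against HAMS (252), 0 to 600 in HAMSA against HAMSB (117) and 0 to 2694 in HAMSA against NP (212). They were 0 to 124 in HAMSB against NP (11), 37 to 1264 in HAMS against NP (650) and 264 to 1894 for any difference (568). Omissions of 2 libraries at once were chosen after seeing the data. The HAMSA libraries were the shallowest, and the numbers 5 and 6 leave HAMSA and NP with 1 library each, assumed to vary like the others.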
